A study of Mus musculus with 18 samples.

Results

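The mRNA abundance of 39 genes encoding cytosolic translation initiation factors was examined in mouse gracilis muscle after administration of clenbuterol, a β2-adrenergic receptor agonist that increases muscle growth. The list follows gene function, no rule on measured values chose its members, and earlier results of these data were known when it was drawn up. Each gene was represented by its brightest probeset, meaning the one that carried that gene symbol alone and had the highest mean log2 signal over its 9 arrays. A probeset of their own was found for 34 of the 39 genes, out of 18193 genes with such a probeset on either chip, and these 34 genes had 96 probesets in all. Eif1, Eif2s1, Eif3g and Eif4g1 were not analysed here, and neither was Eif3j1, whose probesets also carried the symbol Eif3j2.

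All mice were C57BL/6J males of 3 to 5 weeks of age when obtained, received an intraperitoneal injection daily for 10 days, and were killed 24 hours after the last injection. Clenbuterol was dosed at 1 mg/kg of body weight. It made up every injection of the 10 D group, only the final one of the 24 h group after 9 of vehicle, and none of the 10 given to the C group, which were all vehicle. No mouse was left uninjected, and the study chose 9 mice per group by their weight gain and blood urea nitrogen, to widen the contrast with C, so the pools do not represent unselected animals. RNA of 3 mice was combined into each pool, with 3 pools per group, and each pool was hybridized to an MOE430A and an MOE430B chip. Whole muscle contains several cell types, and in such RNA a change in the proportion of cells of a type and a change in the RNA of each cell cannot be told apart.

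Initiation brings a ribosome to the start codon of an mRNA. The factor eIF2 carries the initiator tRNA to the small ribosomal subunit and is recharged with GTP by eIF2B, which is slowed when kinases phosphorylate the alpha subunit of eIF2 in stressed cells. The eIF4 group recognizes the mRNA cap (eIF4E), unwinds the leader (eIF4A, helped by eIF4B and eIF4H) and is held together by the scaffold eIF4G. The complex eIF3 holds the subunit and the mRNA together, eIF1 and eIF1A guide scanning, and eIF5 and eIF5B trigger GTP hydrolysis and joining of the large subunit. Much of the acute control of these factors in muscle acts on phosphorylation, which arrays of mRNA do not measure.

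The level reported for a probeset was its signal relative to the array median. Levels were compared only within a probeset, except where the choice of the brightest is described. The median signal ranged from 30.8 to 88.4 on the MOE430A arrays and from 13.2 to 37.1 on the MOE430B arrays. All 15 muscle fibre marker genes were measured, and their summed level was 2740 to 4340 in the C pools, 2360 to 3140 in the 24 h pools and 2060 to 3430 in the 10 D pools. All 15 were lower at 24 h than in C and 14 were lower at 10 D, and none passed the test described below. The summed level of 6 skin and keratinocyte markers was 4.97 to 23.3 in C, 3.57 to 5.87 in 24 h and 4.43 to 9.51 in 10 D, and that of 5 satellite cell markers was 6.75 to 8.76 in C, 13.3 to 15.6 in 24 h and 6.31 to 7.53 in 10 D. The satellite cell sum was carried by Myog, a factor of muscle differentiation, which alone of the 5 passed the test at 24 h (log2 change 2.06, SE 0.34, adjusted p = 0.053), while 3 of the 5 were below C. Summed levels of adipocyte, leucocyte, endothelial, fibroblast, erythroid and nerve markers overlapped with C in both treated groups, although 7 of 8 fibroblast markers were below C at 24 h. Of 6 adipocyte markers, 5 were below C at 24 h and 6 at 10 D. Of 5 skin and keratinocyte markers tested, 5 were below C at 24 h and 4 at 10 D. The leucocyte marker S100a8, a neutrophil protein, was higher at 24 h (log2 change 4.34, SE 0.68, adjusted p = 0.044), from low C levels of 0.205, 0.0354 and 0.196. At 10 D its log2 change was 3.12 (SE 0.68), which did not pass. Its relative S100a9 had a log2 change of 1.22 at 24 h (SE 1.23). Of 7 leucocyte markers tested, only Ptprc was below C at 24 h (log2 change -0.99, SE 0.38). The part of these cell types in the values below was not tested.

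The MOE430A array of 24 h pool 3 departed from the other arrays in 213 of its 22626 probesets. In the first 100 rows of the table, which are the 100 probesets present on both chips, its correlation with the mean of the other arrays was -0.00165, and in the last 113 rows it was 0.348, against 0.959 over the remaining rows. For the other 8 arrays these correlations were between 0.879 and 0.969. The only probeset of Eif2b1 and a second probeset of Eif5 lie in these stretches. The change of Eif2b1 is therefore given with and without this array, and the Eif5 probeset is given beside its MOE430B copy.

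None of the 34 initiation factors passed the test across the 3 groups at a Benjamini-Hochberg adjusted p under 0.1 (limma F test), where 0.216% of 33752 probesets passed, and 7 of the 34 had an unadjusted p under 0.05 in that test, as did 6.62% of all probesets. None passed at 24 h against C, where 0.456% of probesets and 0.706% of the brightest probesets of all genes passed, or at 10 D against 24 h, where 0.0504% passed. None passed at 10 D against C, where 0% of all probesets passed. Between 10 D and 24 h, 5 of the 34 genes had an unadjusted p under 0.05, where 5.48% of all probesets did, with Eif2b4, Eif4a1, Eif4h and Eif5 lower at 10 D and Eif4g3 higher. An unmoderated linear model also called none of the 34 in any of these tests.

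The values nearest to a change were higher levels in the 24 h group. An unadjusted limma p under 0.05 was found at 24 h for 7 of the 34 genes (20.6%), and all 7 were higher than C, where 5% of all probesets were higher and 3.55% lower at the same limit. Among the brightest probesets of all 15153 genes tested, 6.01% were higher at this limit. The count of 7 depended on the processing. It was 3 higher without C pool 1, where 3.91% of all probesets were higher. It was 9 higher and 1 lower without 10 D pool 1, where 5.55% were higher. Quantile scaling gave 6 higher and 1 lower, and 75th percentile scaling 5 higher and 1 lower, where 4.52% and 4.1% of all probesets were higher. The 7 genes were Eif4e2, Eif4a1 and Eif4h of the eIF4 group, Eif2b4 of eIF2B, Eif5, and Eif3k and Eif3c of eIF3. At 10 D against C the count was 3 of 34 higher (8.82%) and 0 lower, where 2.64% of all probesets were higher and 1.92% lower and 2.9% of the brightest probesets were higher, and the 3 genes were Eif3c, Eif3k and Eif4e2. The number higher at 10 D was 0 without 10 D pool 3 and 5 without 10 D pool 1. Both comparisons use the same C pools. The brightest probeset was chosen over all 9 arrays, treated ones included, so a probeset that is high in a treated group was favoured. Among the 7 genes, Eif4e2 and Eif5 had another probeset on the same chip that was brighter in the C pools.

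Over all 34 genes the median log2 change at 24 h was 0.23, beside 0.02 over all probesets tested and 0.04 over the brightest probeset of every gene. A level above C was found for 23 of the 34 genes (67.6%) and a level below C for 11, where 51.8% of all probesets and 53.5% of the brightest probesets of all genes were above C. At 10 D the median log2 change was 0.16, beside 0.01 over all probesets, and 24 of 34 genes were above C, where 51.6% of all probesets and 53.1% of the brightest probesets were. The median at 24 h was 0.08 without 24 h pool 1 and 0.35 without 24 h pool 2, and the median at 10 D was -0.02 without 10 D pool 1 and 0.27 without 10 D pool 2.

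The pools of a treated group differed from one another across the whole set. Relative to the mean of C, the median log2 level of the 34 genes was 0.41 in 24 h pool 1, -0.05 in pool 2 and 0.35 in pool 3, and it was 0.38, -0.18 and 0.15 in the 10 D pools in the same order. Pool 2 held the lowest value of its group for 23 of 34 genes at 24 h and for 24 of 34 at 10 D, and 10 D pool 1 held the highest for 25 of 34. The matching counts over all probesets were not made, so these are not shown to be particular to initiation factors. Over all probesets past the filter, deviations of 24 h pool 2 and 10 D pool 2 from their group means correlated by 0.56 on MOE430A and 0.16 on MOE430B. Both pools numbered 2 were then left out, a choice made after the low values of these same genes were seen. Leaving out the lowest pool raises the group mean of most of these genes. The p-values of that fit are therefore not a valid test of them. The brightest probesets of Eif2b4, Eif4a1 and Eif4e2 passed the test at 24 h in that fit, with adjusted p of 0.031, 0.023 and 0.087 (limma), while 1.77% of all probesets passed. With 10 D pool 2 alone left out, Eif4e2 passed (adjusted p = 0.069), as did 1.29% of all probesets. On MOE430A the array median signal was 62.1, 35.7 and 51.1 in 24 h pools 1, 2 and 3, and 88.4, 33.6 and 46.6 in the 10 D pools. In the C pools it was 30.8, 65 and 42.8. Pool 2 was thus the dimmest array of each treated group and pool 1 the brightest. Why these pools differ, and any part of array brightness in it, was not tested.

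**Figure D1:**
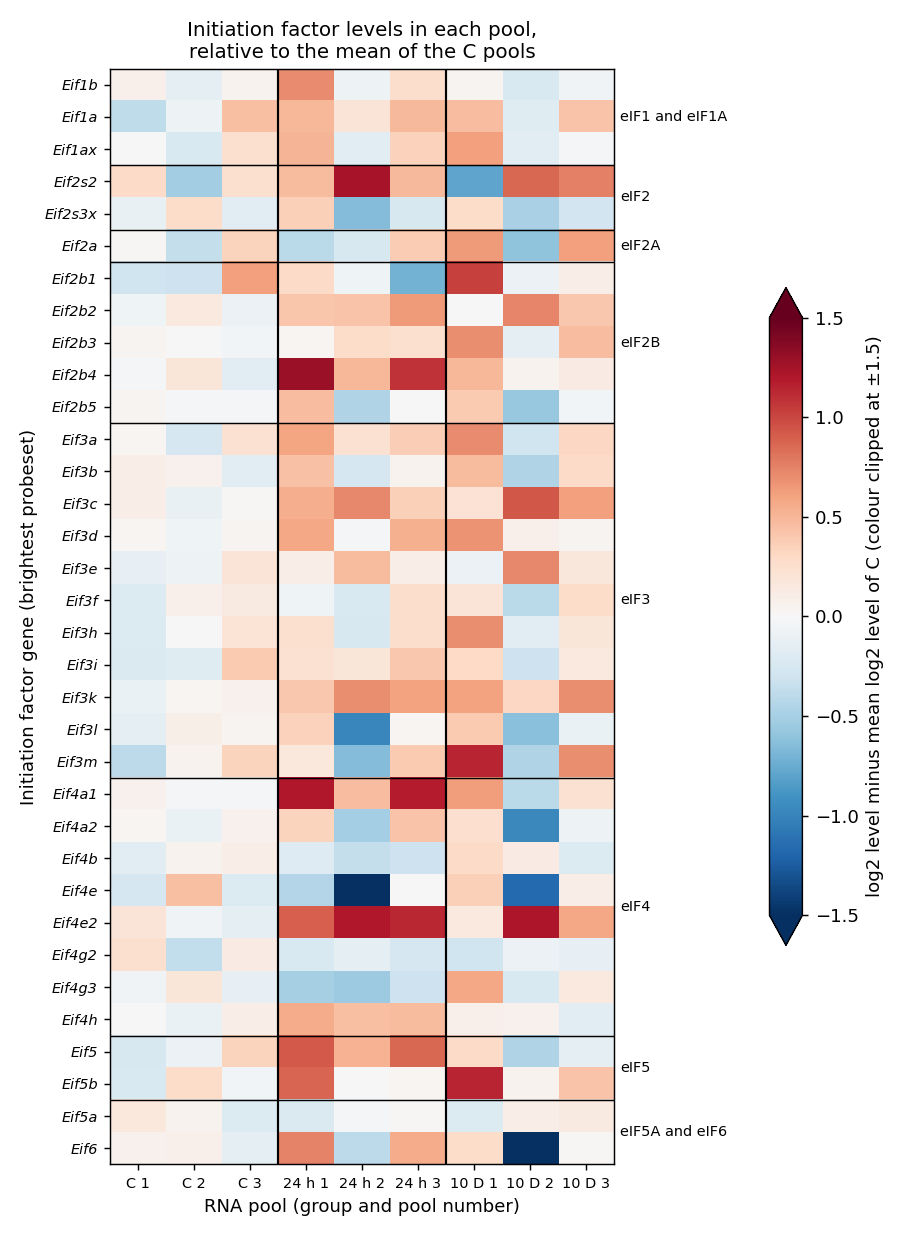
Log2 level of each initiation factor (rows, brightest probeset, grouped by complex) in each of the 9 RNA pools (columns), minus its mean log2 level in the 3 C pools; red is above and blue below that mean. Levels in 24 h pools 1 and 3 were mostly above C (medians 0.41 and 0.35) while pool 2 of both treated groups had medians of -0.05 and -0.18; the value of Eif2b1 in 24 h pool 3 is from the rows that do not follow the other arrays.

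Of the cap-binding and unwinding factors, Eif4a1, the RNA helicase that opens the leader of the mRNA (chr11:69666936-69672423 in RefSeq, GRCm38.p6), had levels of 10.8, 10.1 and 10.2 in the C pools, 23.9, 14.3 and 23.4 in the 24 h pools, and 16.1, 7.8 and 12.1 in the 10 D pools. Every 24 h pool lay above every C pool, and the 10 D pools lay on both sides of C. The 24 h level was 1.93 times that of C (log2 change 0.95, SE 0.30, adjusted p = 0.35), and the 10 D level was 1.11 times C (log2 change 0.15, SE 0.30). A second Eif4a1 probeset, 1434985_a_at, which is less bright, passed the test and rose at 24 h: its levels were 8, 7.79 and 7.98 in the C pools, 15.6, 14.4 and 17.5 in the 24 h pools and 10.7, 8.51 and 8.24 in the 10 D pools. Its mean was 7.93 ± 0.115 (SD, n = 3 pools) in C and 15.9 ± 1.55 (SD, n = 3) at 24 h, a 1.99-fold difference (log2 change 1.00, SE 0.19, limma adjusted p = 0.093), and pool 2 was above C here as well. This was the only one of the 90 initiation factor probesets tested that passed at 24 h, where 0.456% of all probesets passed. Its adjusted p was between 0.035 and 0.34 under the alternatives. The call was lost when any C or 24 h pool or 10 D pool 3 was left out. It was also lost with an offset of 16 added to the signal and without the intensity trend. The third probeset, 1430980_a_at, ranged from 2.29 to 13 at 24 h around C levels of 3.11 to 5.83 (log2 change 0.42, SE 0.75).

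Eif4e2, which encodes a relative of the cap-binding protein that can repress translation, had levels of 2.24, 1.88 and 1.79 in the C pools, 3.65, 4.5 and 4.3 in the 24 h pools and 2.17, 4.54 and 2.92 in the 10 D pools. The 24 h pools did not overlap with C, whereas 10 D pool 1 lay within the C range. The log2 change was 1.07 at 24 h (SE 0.28, adjusted p = 0.22) and 0.64 at 10 D (SE 0.28, adjusted p = 1), or 2.1-fold and 1.56-fold. This gene had 4 other probesets, 2 of which were higher and 2 lower at 24 h, with log2 changes from -0.27 to 0.40. The mean log2 signal over 9 arrays was 7.13 for the chosen probeset, 7.12 for 1455108_at and 7.08 for 1421985_a_at. In the C pools 1421985_a_at, on the same chip, was brighter than the chosen probeset (mean level 2.75 against 1.97). Its log2 change at 24 h was 0.37 (SE 0.52). By signal, 1455108_at on MOE430B was also brighter than the chosen probeset in every C pool, and its log2 change at 24 h was 0.40 (SE 0.25).

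Eif4h, a partner that stimulates the helicase, was 22.5, 21 and 24 in the C pools, 33, 30.6 and 31.2 in the 24 h pools and 23.8, 23.6 and 20.1 in the 10 D pools. The 24 h pools were close to one another and all above C, and the 10 D pools lay around the C range. The 24 h level was 1.41 times C (log2 change 0.49, SE 0.18, adjusted p = 0.46) and the 10 D level 0.997 times C, and 10 D against 24 h differed by -0.50 on the log2 scale (unadjusted p = 0.019, adjusted p = 0.78). The identifier of this probeset, 1438554_x_at, marks probes that may also bind other sequences. A second bright probeset, 1416941_s_at, stood 0.69 above C at 24 h on the log2 scale (SE 0.22, adjusted p = 0.36), and 4 dimmer ones lay between -1.40 and 0.23.

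The brightest probesets of the other eIF4 genes had no unadjusted p under 0.05 against C. Eif4e, the main cap-binding protein, had levels of 9.35, 15.3 and 9.64 in the C pools, 8.21, 3.68 and 11.1 in the 24 h pools and 14.3, 4.96 and 11.9 in the 10 D pools, so that the groups overlapped. Its log2 change at 24 h was -0.68 (SE 0.47, adjusted p = 0.75), and all 4 of its probesets were below C at 24 h, from -0.68 to -0.26. Eif4g3, a scaffold protein, was 12.9, 15.2 and 12.2 in the C pools, 9.46, 9.15 and 10.8 in the 24 h pools and 20, 11.4 and 14.8 in the 10 D pools. All 24 h pools of this probeset were below all C pools (log2 change -0.45, SE 0.24, adjusted p = 0.65), and 10 D differed from 24 h by 0.62 (unadjusted p = 0.025, adjusted p = 0.82). The 4 probesets of Eif4g3 and the 5 of Eif4g2, a scaffold relative that does not bind the cap protein, were all below C at 24 h, from -0.82 to -0.09 and from -0.49 to -0.05. The brightest probeset of Eif4b, a helicase cofactor, had a log2 change of -0.29, with all 24 h pools below C, but a dimmer one, 1426379_at, had 0.73 (SE 0.28, unadjusted p = 0.028, adjusted p = 0.50), with all 24 h pools above C. Eif4a2, the second helicase gene, had 0.08. The eIF4 group was thus divided at 24 h, with 4 of 8 genes above and 4 below C and a median log2 change of -0.06.

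**Figure D2:**
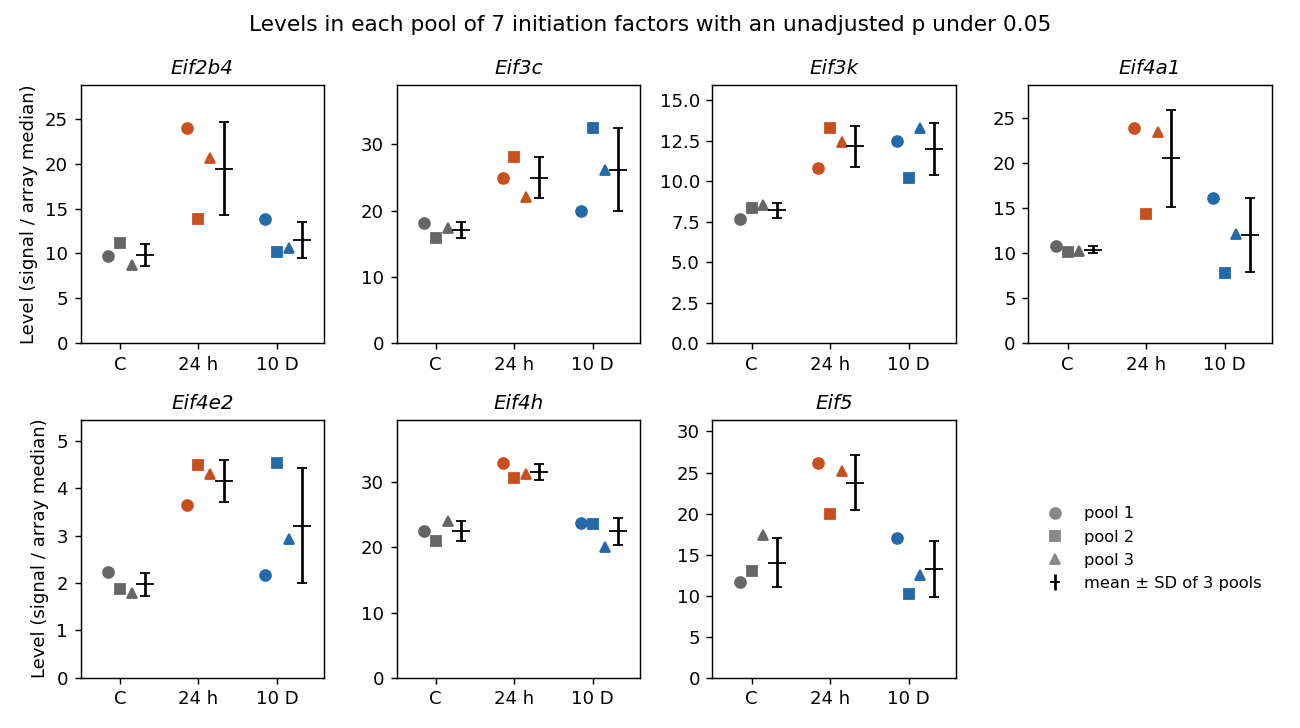
Level (signal divided by array median, linear axis from 0) of the 7 initiation factors with an unadjusted p under 0.05 at 24 h or 10 D against C; each symbol is 1 pool and the black bar is the mean ± SD of 3 pools. The 24 h pools lie above the C pools in all 7, while at 10 D Eif4h, Eif5 and Eif4a1 overlap with C and Eif3k does not.

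Of the eIF2 recycling factors, Eif2b4, the delta subunit of eIF2B, had levels of 9.65, 11.1 and 8.68 in the C pools, 24, 13.8 and 20.6 in the 24 h pools and 13.8, 10.1 and 10.6 in the 10 D pools. The 24 h pools were all above C, with pool 2 the lowest, and the 10 D pools overlapped with C. The 24 h level was 1.94 times C (log2 change 0.96, SE 0.25, adjusted p = 0.23), and the 10 D level 1.17 times C. The difference of 10 D from 24 h was -0.74 (SE 0.25, unadjusted p = 0.014, adjusted p = 0.73). Eif2b2, the beta subunit, was 9.08, 10.5 and 8.89 in C and 12.7, 12.7 and 14.8 at 24 h, with no overlap (log2 change 0.50, SE 0.22, adjusted p = 0.59). This probeset, 1434538_x_at, may also bind other sequences. A second probeset, 1451136_a_at, stood 0.59 above C on the log2 scale at 24 h (SE 0.23, adjusted p = 0.49). The third, 1437428_x_at, had -0.07 at 24 h and -0.34 at 10 D, where all its pools were below C. Eif2b3 and Eif2b5, the gamma and epsilon subunits, had log2 changes of 0.18 and 0.00 at 24 h.

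Eif2b1, the alpha subunit, had a level of 3.31 in 24 h pool 3, the array whose rows did not follow the others, and 6.59 and 5.15 in the other 24 h pools, against 4.39, 4.34 and 8.24 in C. Its log2 change at 24 h was -0.16 (SE 0.38) with that value and 0.11 with it set to missing. Of the eIF2 subunits themselves, Eif2s2 (beta) had 24 h levels of 39.1, 66.7 and 39.7, all above C levels of 34.4, 19.6 and 33.4 (log2 change 0.73, SE 0.44, adjusted p = 0.70). Its 6 probesets did not share a direction, with 4 higher and 2 lower at 24 h. Another of these, 1417712_at, was brighter than the chosen one in the C pools (mean level 32.2 against 29.1). Its log2 change at 24 h was 0.21 (SE 0.32). Eif2s3x (gamma) had a log2 change of -0.18 at 24 h and -0.17 at 10 D. Eif2a, a separate protein that can deliver initiator tRNA without GTP, had -0.09 and 0.22.

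Eif5, which makes eIF2 hydrolyse its GTP at the start codon, was 11.7, 13 and 17.4 in the C pools, 26.2, 19.9 and 25.2 in the 24 h pools and 17, 10.2 and 12.5 in the 10 D pools. All 24 h pools were above all C pools and above all 10 D pools. The 24 h level was 1.7 times C (log2 change 0.77, SE 0.25, adjusted p = 0.38), the 10 D level 0.932 times C, and the 10 D level differed from 24 h by -0.87 on the log2 scale (SE 0.25, unadjusted p = 0.006, adjusted p = 0.60). The probeset 1415723_at of Eif5, present on both chips, read 3 in 24 h pool 3 on MOE430A but 67.4 in the same pool on MOE430B. On MOE430B it was 32, 31.1 and 48.3 in C and 52.8, 56 and 67.4 at 24 h (log2 change 0.68, SE 0.28), whereas the MOE430A copy gave -0.54 (SE 0.65). The other MOE430A levels were 23.5 and 23.9 at 24 h, and 14, 19.4 and 19.1 in C. The log2 change at 10 D was 0.20 (SE 0.65). Its mean log2 signal on MOE430A was 9.58 with the reading of 3, beside 9.60 for the chosen probeset. In the C pools it was the brighter (mean level 17.5 against 14.1), so the choice of the Eif5 probeset depended on that reading. Another MOE430B probeset of Eif5, 1456256_at, had a log2 change of -0.46. For Eif5b, the GTPase that joins the ribosomal subunits, the 24 h change was 0.30 and the 10 D change 0.54 (SE 0.33 for both), with its highest levels in pool 1 of both treated groups.

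The eIF3 complex was represented by 11 of its 13 listed subunits, of which 8 were above C at 24 h and 10 at 10 D, with median log2 changes of 0.22 and 0.24. Eif3k, a peripheral subunit, had levels of 7.67, 8.37 and 8.54 in the C pools, 10.8, 13.3 and 12.4 in the 24 h pools and 12.5, 10.2 and 13.3 in the 10 D pools. Both treated groups lay wholly above C (log2 change 0.57, SE 0.19, adjusted p = 0.41 at 24 h; 0.54, SE 0.19, adjusted p = 1 at 10 D). Eif3c, a core scaffold subunit, was 18.2, 15.8 and 17.3 in the C pools, 24.9, 28.1 and 22 in the 24 h pools and 19.9, 32.5 and 26.1 in the 10 D pools. Its treated pools were also all above C (log2 change 0.54, SE 0.22, adjusted p = 0.53 at 24 h; 0.59, SE 0.22, adjusted p = 1 at 10 D).

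The Eif3c probeset is 1456374_x_at, another that may bind further sequences, and unlike most of the set it was highest in pool 2 of both treated groups. The other 3 probesets of Eif3c had log2 changes of 0.93, 0.24 and -0.64 at 24 h, the last being 1415859_at, whose log2 change at 10 D was -0.95. Eif3d was above C in all 10 D pools (log2 change 0.26, SE 0.24) and Eif3a in all 24 h pools (0.40, SE 0.27), but 2 of the 4 Eif3a probesets were lower at 24 h, down to -1.21. Eif3b, Eif3e, Eif3f, Eif3h and Eif3i ranged from -0.01 to 0.27 at 24 h, and Eif3l and Eif3m were -0.20 and -0.03. Eif3m was highest in 10 D pool 1, at 9.92, against 3.41 to 5.66 in C, with 3.27 in 10 D pool 2.

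Of the scanning factors, Eif1b, Eif1a and Eif1ax stood at 0.30, 0.40 and 0.23 above C on the log2 scale in the 24 h group and at -0.08, 0.24 and 0.14 relative to C in the 10 D group, with all groups overlapping. Eif5a, which helps ribosomes through difficult peptide bonds and carries the hypusine residue, had levels of 39.9 to 51.5 in C, 39.6 to 46.7 at 24 h and 40 to 50.6 at 10 D (log2 change -0.07 and 0.01, SE 0.20). Eif6, which keeps the large subunit from joining early, was 8.87, 4.03 and 7.81 at 24 h and 6.42, 1.39 and 5.35 at 10 D, against 5.53, 5.57 and 4.82 in C. Its log2 change was 0.30 at 24 h and -0.55 in the 10 D group (SE 0.52 for both), where only pool 2 lay below the C range.

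**Figure D3:**
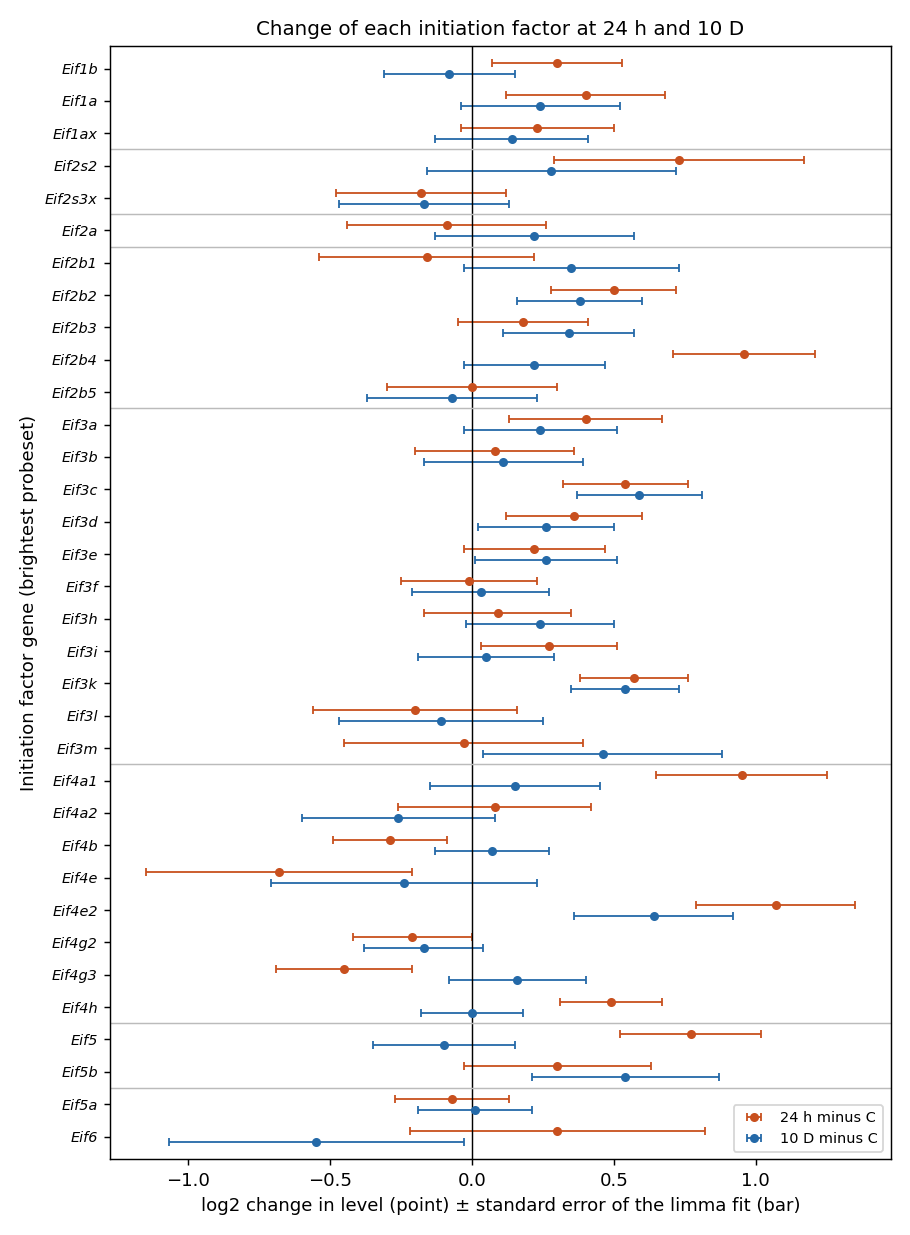
Log2 change of each of the 34 initiation factors at 24 h (orange) and 10 D (blue) against C, with the standard error of the limma fit; both use the same C pools. At 24 h the changes run from -0.68 (Eif4e) to 1.07 (Eif4e2), and at 10 D from -0.55 (Eif6) to 0.64 (Eif4e2).

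Groups that did not overlap were counted without a test. At 24 h, 10 of 34 genes had all pools above C (29.4%) where 9.6% of all probesets did, and 2 (5.88%), Eif4b and Eif4g3, had all pools below C where 7.23% of all probesets did. The 10 include Eif2s2, Eif4e2 and Eif5, for which another probeset was brighter in the C pools. At 10 D, 3 genes (8.82%), Eif3c, Eif3d and Eif3k, had all pools above C where 5.76% of probesets did, and 0 were below, where 4.52% were. With 3 pools against 3, an exact permutation test of a single gene cannot give a two-sided p below 0.1.

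Probesets of a gene often disagreed. Of the 24 genes with more than 1 probeset tested, 4 had all above C at 24 h, 4 had all below, and 16 had some on each side. Over the 56 tested probesets other than the brightest, 27 were above and 29 below C at 24 h, with a median log2 change of -0.06. The mean over all probesets of a gene gave a median log2 change of 0.10 at 24 h and 0.04 at 10 D. Without probesets whose identifier ends in _x_at or _s_at, 32 genes remained and 7 again had an unadjusted p under 0.05 at 24 h, but Eif3c and Eif4h were then replaced by Eif1a and Eif2b2.

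**Figure D4:**
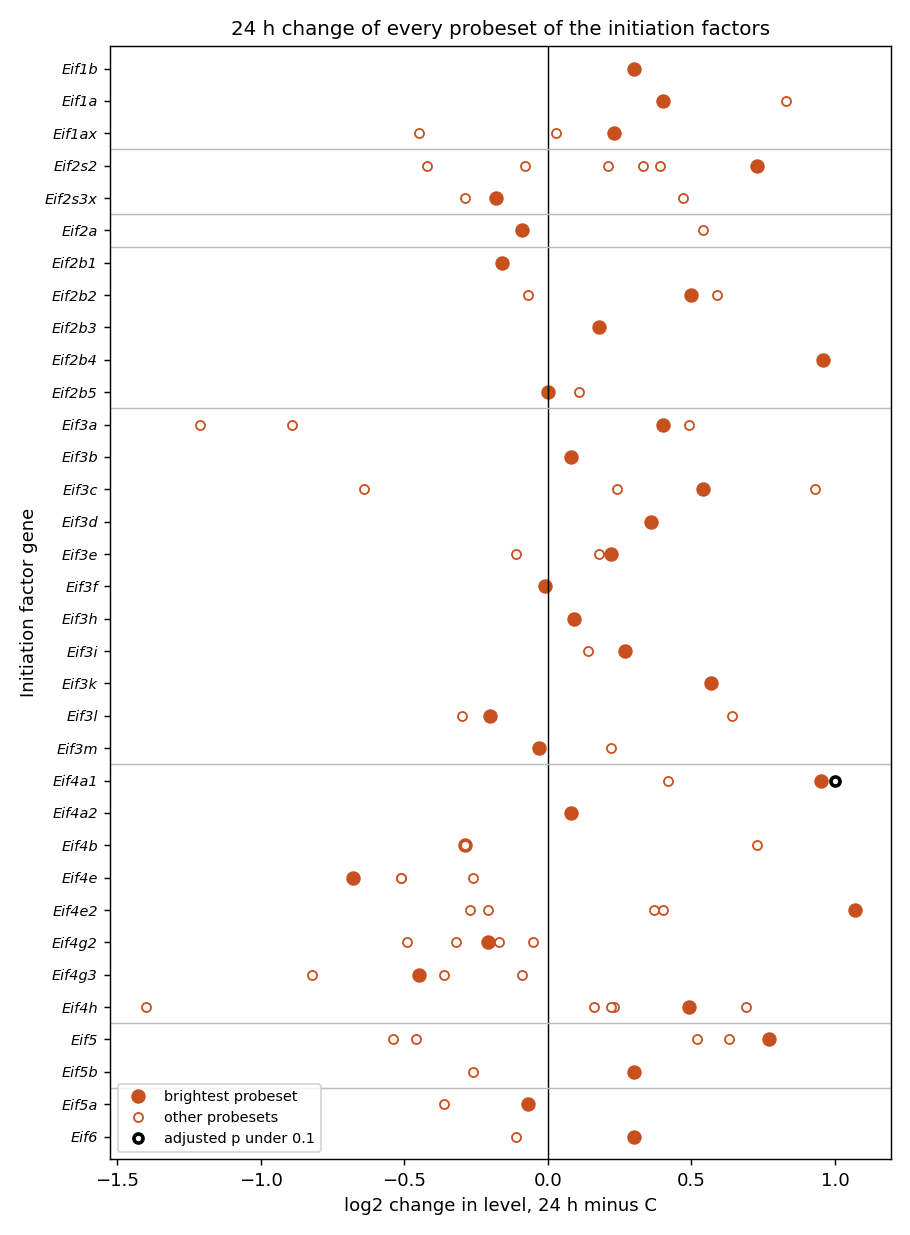
Log2 change at 24 h against C of every tested probeset of each initiation factor; filled circles are the brightest probeset and open circles the others, and a thick black rim marks an adjusted p under 0.1. Only 1 probeset, of Eif4a1, has the rim, where 0.456% of all probesets passed, and the probesets of Eif3a, Eif4h and Eif5 lie on both sides of 0.

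Promoters were searched for the letters of 3 motifs on both strands, in RefSeq windows of 250 bases before to 50 bases after each start (GRCm38.p6), which were given for 27 of the 34 genes. The E-box CACGTG, the letters bound by MYC and USF proteins, occurred in 10 of the 36 windows of these genes (27.8%) and in 7.15% of all 32851 windows. These 10 windows belong to 8 genes, 3 of which are among the 7 above, and windows of Eif5a overlap one another. The cyclic AMP response element TGACGTCA occurred in 0 of the 36 windows and in 1.79% of all. The amino acid response element TGATGNAAN, the letters read by ATF4 dimers, occurred in 1 window, that of Eif2s3x (2.78%), and in 3.95% of all. The 30 bases around the E-box of the 3 genes that had an unadjusted p under 0.05 at 24 h, and of Eif4e for comparison, are shown 5′ to 3′ on the strand of the gene with the E-box in capitals, to let the flanks be compared.
Eif4a1, chr11:69672595-69672624, minus strand: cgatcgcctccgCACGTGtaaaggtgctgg
Eif4h, chr5:134639488-134639517, minus strand: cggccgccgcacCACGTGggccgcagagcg
Eif3k, chr7:28981915-28981944, minus strand: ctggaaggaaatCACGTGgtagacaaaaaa
Eif4e, chr3:138527028-138527057, plus strand: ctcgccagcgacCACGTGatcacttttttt
Eif4e, chr3:138527192-138527221, plus strand: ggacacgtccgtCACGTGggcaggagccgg
The E-box began 189 bases before the start in Eif4a1, 96 in Eif4h, 44 in Eif3k, and 228 and 64 in Eif4e. The remaining genes with these letters were Eif1b, Eif3a, Eif3f and Eif5a, and no test of the motif against the changes was made.

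Genes that regulate initiation or act in later steps were examined as lists. Of 37 listed regulators, 35 were tested and none passed at 24 h, 10 D or in the F test, while 6 were higher and 1 lower at 24 h at an unadjusted p under 0.05, the limit at which 5% of all probesets were higher and 3.55% lower. The list had a median log2 change of 0.17 at 24 h and 0.06 at 10 D. Ppp1r15a (GADD34), which directs a phosphatase to eIF2 alpha, was 1.39, 1.89 and 2.02 in the C pools, 6.73, 3.36 and 5.21 in the 24 h pools and 2.09, 1.27 and 2.44 in the 10 D pools. All its 24 h pools were above the other pools (log2 change 1.49, SE 0.33, adjusted p = 0.14). Mknk2, a kinase that phosphorylates eIF4E, was 42.6, 45.4 and 40.2 in the C pools, 81.3, 91.3 and 84.7 in the 24 h pools and 35.7, 50.8 and 57.6 in the 10 D pools. Its 24 h pools were all above the others, pool 2 included (log2 change 1.00, SE 0.22, adjusted p = 0.12).

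For the eIF4E-binding proteins, which withhold eIF4E from the scaffold, the brightest probesets differed in direction. Eif4ebp1 was 1.88 times C at 24 h (log2 change 0.91, SE 0.34, adjusted p = 0.48) and Eif4ebp2 0.354 times C (log2 change -1.50, SE 0.51, adjusted p = 0.41). Eif4ebp1 stood at 32.3 in 24 h pool 2 against 16 and 15.7 in the other 24 h pools, and Eif4ebp2 at 2.43 against 5.62 and 5.35. Rheb, which acts upstream of these proteins, was 1.65 times C at 24 h (adjusted p = 0.29). Mtor, the kinase it activates, was 1.4 times C (adjusted p = 0.51).

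Of 7 elongation factor genes tested, none passed and 2 were above and 5 below C at 24 h. The smallest F test p values were those of Eef2k, the kinase that inhibits elongation factor eEF2, which was 14.4, 15.5 and 15.3 in the C pools, 9.28, 13.7 and 11.1 in the 24 h pools and 17.1, 21.7 and 19.7 in the 10 D pools (F test adjusted p = 0.50), and of Eef1a2, the muscle form of the factor that carries aminoacyl-tRNA, with a log2 change of -0.72 at 24 h (SE 0.37). For Eef2k the 24 h pools lay below C and the 10 D pools above it. Of 7 release and recycling genes none passed, 3 being above and 4 below C at 24 h, and the smallest p values were those of Trmt112 and N6amt1, with log2 changes of -0.15 and 0.54. Of 8 mitochondrial translation genes none passed, with 4 above and 4 below C. The smallest p values were those of Tufm, the mitochondrial elongation factor, at 8.21, 9.26 and 7.28 in C and 14.6, 24.5 and 14.1 at 24 h (log2 change 1.06, SE 0.26, adjusted p = 0.17), and of Mtif3, a mitochondrial initiation factor, with a log2 change of 0.70 at 10 D (SE 0.29, adjusted p = 1).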

How the data were processed

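Total RNA pools were hybridized to MOE430A and MOE430B arrays, and the deposited tables hold the authors' MAS 5.0 signal intensity for each probeset on a linear scale, without scaling between arrays. Values were read per sample, and each signal was divided by its array median. The 100 probesets on both chips were used from MOE430A alone. A signal of 0 was set to 0.05, values were expressed as log2, and probesets under the 25th percentile of mean log2 signal of their chip were left out, which left 33752 of 45037. All 34 genes passed. Groups were compared with limma 3.58.1 (lmFit, and eBayes with an intensity trend, R 4.3.3) on the 9 arrays of a chip, with Benjamini-Hochberg adjustment over both chips together and a threshold of 0.1. The code was tested on simulated data. With 3 pools per group the number of arrays limits the precision, and p-values measure the spread between pools. Probesets were named from the platform annotation, updated to RefSeq symbols through gene identifiers: 34945 carried 1 symbol and 932 several, from which no gene was named. Promoter sequences and positions are from RefSeq (GRCm38.p6).

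Every gene of the set is named. Genes with an unadjusted p under 0.05 at 24 h or 10 D against C are given in full, others by complex, and each regulator list by the genes past the test or else the 2 with the smallest F test p, with others named after their values were seen. The set and the lists were chosen with earlier results of these data known. Alternatives were quantile and 75th percentile scaling, no filter and a 50th percentile filter, an offset of 16, no trend, no moderation of the variance, a replicate block, the mean over probesets and leaving out each pool. Added after the data were seen were leaving out both treated pools numbered 2, setting the values of the rows that did not follow the other arrays to missing, the MOE430B copies, and leaving out _x_at and _s_at probesets.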

Additional observations from a re-analysis of the deposited data

How the results depend on the processing

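Under the alternatives, 0 initiation factors passed at 10 D against C and at 10 D against 24 h. At 24 h against C the count of 0 became 1 (Eif4e2) without 10 D replicate 2, the range over left-out pools being 0 to 1, and 3 with both treated pools numbered 2 left out, where the F test called 2 and 1.77% and 0.995% of all probesets were called by these tests. The pools numbered 2 were left out because these same genes were low in them, so the calls of that fit are not a valid test. The median log2 change ranged from 0.08 to 0.35 at 24 h and from -0.02 to 0.27 at 10 D. The direction was the same in every refit of the brightest probesets and in the mean over probesets for 19 of 34 genes at 24 h and 13 at 10 D, including all 7 named genes at 24 h. Leaving out each pool in turn moved the 10 D change of Eif4a1 from -0.09 to 0.43, of Eif4h from -0.05 to 0.07 and of Eif5 from -0.30 to 0.07, and the 24 h change of Eif2b1 from -0.39 to 0.15, so that each changed sign in some of these fits. Further reversed values were 0.04 for Eif4h at 10 D with an offset of 16 and 0.05 with the mean over its probesets, 0.07 for Eif5 at 10 D with both treated pools numbered 2 left out, and 0.11 for Eif2b1 at 24 h with the doubtful value missing. The causes were not tested beyond these settings. Deviations of same-numbered pools of C and 24 h correlated between -0.07 and 0.05 on MOE430A, and those of 24 h and 10 D by 0.39, 0.56 and 0.10 there and by 0.11, 0.16 and 0.01 on MOE430B, so that the numbers were not taken to pair the pools although pools 1 and 2 of the treated groups deviated together on MOE430A. The replicate block left 0 genes called at 24 h, with 209 probesets called against 154. The number called at 24 h was 24 to 435 with a pool left out, 52 without the trend and 103 with the offset of 16. The 24 h calls of the second Eif4a1 probeset were lost with adjusted p of 0.15 to 0.34 when any C or 24 h pool or 10 D pool 3 was left out, and with 0.20 and 0.17 under the offset and without the trend.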
